A study of Rattus norvegicus with 47 samples.

Results

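The genes followed here build and drive motile cilia, and they were read in the lungs of rats that had inhaled silica. They were chosen by name only, as the rows of the lung tables whose gene name begins with Dnah, Dnai, Dnaaf, Rsph, Tekt or Cfap, plus 10 single genes: Foxj1, Mcidas, Ccno, Tppp3, Dynlrb2, Ccdc39, Ccdc40, Drc1, Hydin and Spag6. That gave 45 of the 30045 rows of a table. The 45 rows carry 43 names, since Dnah5 and Dnah7 each stand on 2 rows, written below as Dnah5 and Dnah5-2 and as Dnah7 and Dnah7-2. The rule uses names and no measured value.

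The animals were male Fischer 344 rats, an inbred laboratory strain. In whole-body chambers they breathed either crystalline silica, supplied as the ground quartz Min-U-Sil 5, at 15 mg/m3 or filtered air, for 6 h a day on 5 days. Lungs were taken 1 day or 6 months later. The groups were silica lungs at 1 day (n = 6), air lungs at 1 day (n = 6), silica lungs at 6 months (n = 6) and air lungs at 6 months (n = 5), each lung from a rat with its own number. The labels give no age, chamber or litter, so treatment and chamber cannot be told apart, and p-values measure the spread between animals. The library totals at 1 day ran over 13010441 to 16706394 estimated counts for silica, and over 12050267 to 25875985 for air. At 6 months they ran over 12830110 to 19767374 for silica, and over 12119244 to 13558152 for air. Levels are CPM, a gene's counts scaled to a common library total, with TMM factors computed within a time, and a level is given as mean ± SD or per library. A change is the log2 ratio of silica to air, printed with its SE, and its p is adjusted over all genes tested. CPM does not correct for gene length, so levels are compared between groups and not between genes.

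A motile cilium is a beating hair on the surface of airway multiciliated cells, which sweep mucus and inhaled particles out of the lung. Its core, the axoneme, is a ring of doublet microtubules around a central pair. Outer and inner dynein arms are the motors that bend it, while radial spokes, nexin links and the central pair control the beat, and tektins lie inside the doublets. A cell becomes multiciliated when Mcidas and its partners switch on Ccno and other genes that multiply centrioles, and Foxj1 with the RFX factors then drives the axoneme genes. Loss of many of these genes in humans causes primary ciliary dyskinesia.

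The promoters of 4 genes are printed, with the short motif that RFX factors bind. Ccno and Tekt2 are the members that rose in silica lungs at 1 day, Mcidas is the regulator next to Ccno, and Deup1 is a further gene of centriole multiplication that rose. Each runs from 250 bases before to 50 after the annotated start in RefSeq's GRCr8 table, 5′ to 3′ on the gene's strand, and capitals mark the core of the RFX motif, GTTGCC or its reverse complement GGCAAC. Ccno lies at chr2:46363824-46364123 and Mcidas at chr2:46369767-46370066, both on the plus strand, and they are neighbours among protein-coding genes. Deup1, which the lung tables list under its older name Ccdc67, lies at chr8:20723536-20723835 on the minus strand. Tekt2 lies at chr5:143907675-143907974 on the minus strand.
Ccno: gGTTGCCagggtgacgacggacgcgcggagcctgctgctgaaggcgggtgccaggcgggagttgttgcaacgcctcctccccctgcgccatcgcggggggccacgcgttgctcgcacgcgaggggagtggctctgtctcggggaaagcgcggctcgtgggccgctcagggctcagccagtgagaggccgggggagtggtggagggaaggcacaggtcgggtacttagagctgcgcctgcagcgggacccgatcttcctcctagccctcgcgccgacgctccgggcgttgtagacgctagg
Mcidas: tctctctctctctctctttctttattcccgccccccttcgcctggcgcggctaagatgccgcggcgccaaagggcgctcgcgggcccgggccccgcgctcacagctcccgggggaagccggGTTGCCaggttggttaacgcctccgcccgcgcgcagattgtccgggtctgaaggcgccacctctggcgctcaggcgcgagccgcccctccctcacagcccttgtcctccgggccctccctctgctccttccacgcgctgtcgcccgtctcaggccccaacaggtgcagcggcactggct
Deup1: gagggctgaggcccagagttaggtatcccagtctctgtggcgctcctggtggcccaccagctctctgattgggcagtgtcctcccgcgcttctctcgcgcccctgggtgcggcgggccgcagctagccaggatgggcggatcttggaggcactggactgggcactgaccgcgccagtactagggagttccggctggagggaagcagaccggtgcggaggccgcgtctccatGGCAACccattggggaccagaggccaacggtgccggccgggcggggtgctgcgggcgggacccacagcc
Tekt2: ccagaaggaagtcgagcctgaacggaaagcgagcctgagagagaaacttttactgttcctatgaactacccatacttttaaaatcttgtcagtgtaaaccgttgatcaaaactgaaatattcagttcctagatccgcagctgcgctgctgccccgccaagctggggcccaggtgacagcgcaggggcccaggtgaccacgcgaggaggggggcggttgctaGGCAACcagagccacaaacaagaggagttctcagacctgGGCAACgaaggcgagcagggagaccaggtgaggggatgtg
The motif core began 249 bases before the start in Ccno and 129 before it in Mcidas. In Deup1 it lay 19 bases before the start, and in Tekt2 copies lay 29 before and 10 after it.

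Of the 43 member names 36 were found in the promoter table. The core GTTGCC, sought on both strands, was present in at least 1 window of 16 of the 36 (44.4%), against 2473 of all 18999 protein-coding genes (13.0%). Among them were Hydin, Spag6, Drc1, Tekt1, Dnah2, Dnai2 and Cfap46 beside the 3 printed members. The longer RFX palindrome (GTNNCC, then AT, then GGNNAC), which can overlap the core, stood in 4 of the 36 (11.1%), against 0.426% of protein-coding genes. Those 4 were Dnaaf2, Dnah2, Dnah12 and Rsph9. The forkhead core TGTTTAC, the kind of site that Foxj1 binds, stood in 3 of the 36 (8.33%), against 3.59% of protein-coding genes, and those were Cfap20, Cfap43 and Tekt3. These are matches of letters in a window and say nothing of binding in these lungs. Members with the GTTGCC core had a median log2 change of 0.049 at 1 day (15 tested) and members without it of 0.00 (19 tested). At 6 months both medians were -0.224 (15 and 20 tested).

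Libraries differed in how much of the axoneme programme they held, also within a group. The air library 49 at 6 months stood apart: it was the highest of its group for 38 of the 42 members tested there, with a median deviation of 0.37 on the log2 scale from its group's mean. Silica 58 at 6 months was the lowest of its group for 28 of 42 members (median deviation -0.30), and air 38 at 1 day the lowest of its group for 30 of 41 (median deviation -0.36). Summed over all members, silica lungs held 1461 to 1725 CPM and air lungs 1532 to 1917 CPM at 1 day. At 6 months silica lungs held 1183 to 1429 CPM and air lungs 1354 to 1880 CPM, with air 49 at the top. The median coefficient of variation of a member was 10.7% in silica and 18.9% in air lungs at 1 day, and 14.6% in silica and 19.5% in air lungs at 6 months. All 8 markers of ciliated cells (Foxj1, Tppp3, Dynlrb2, Ccdc39, Ccdc40, Drc1, Hydin and Spag6) were present in every lung library, the lowest value being 7.8 CPM for Drc1 in silica 58.

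**Figure D1:**
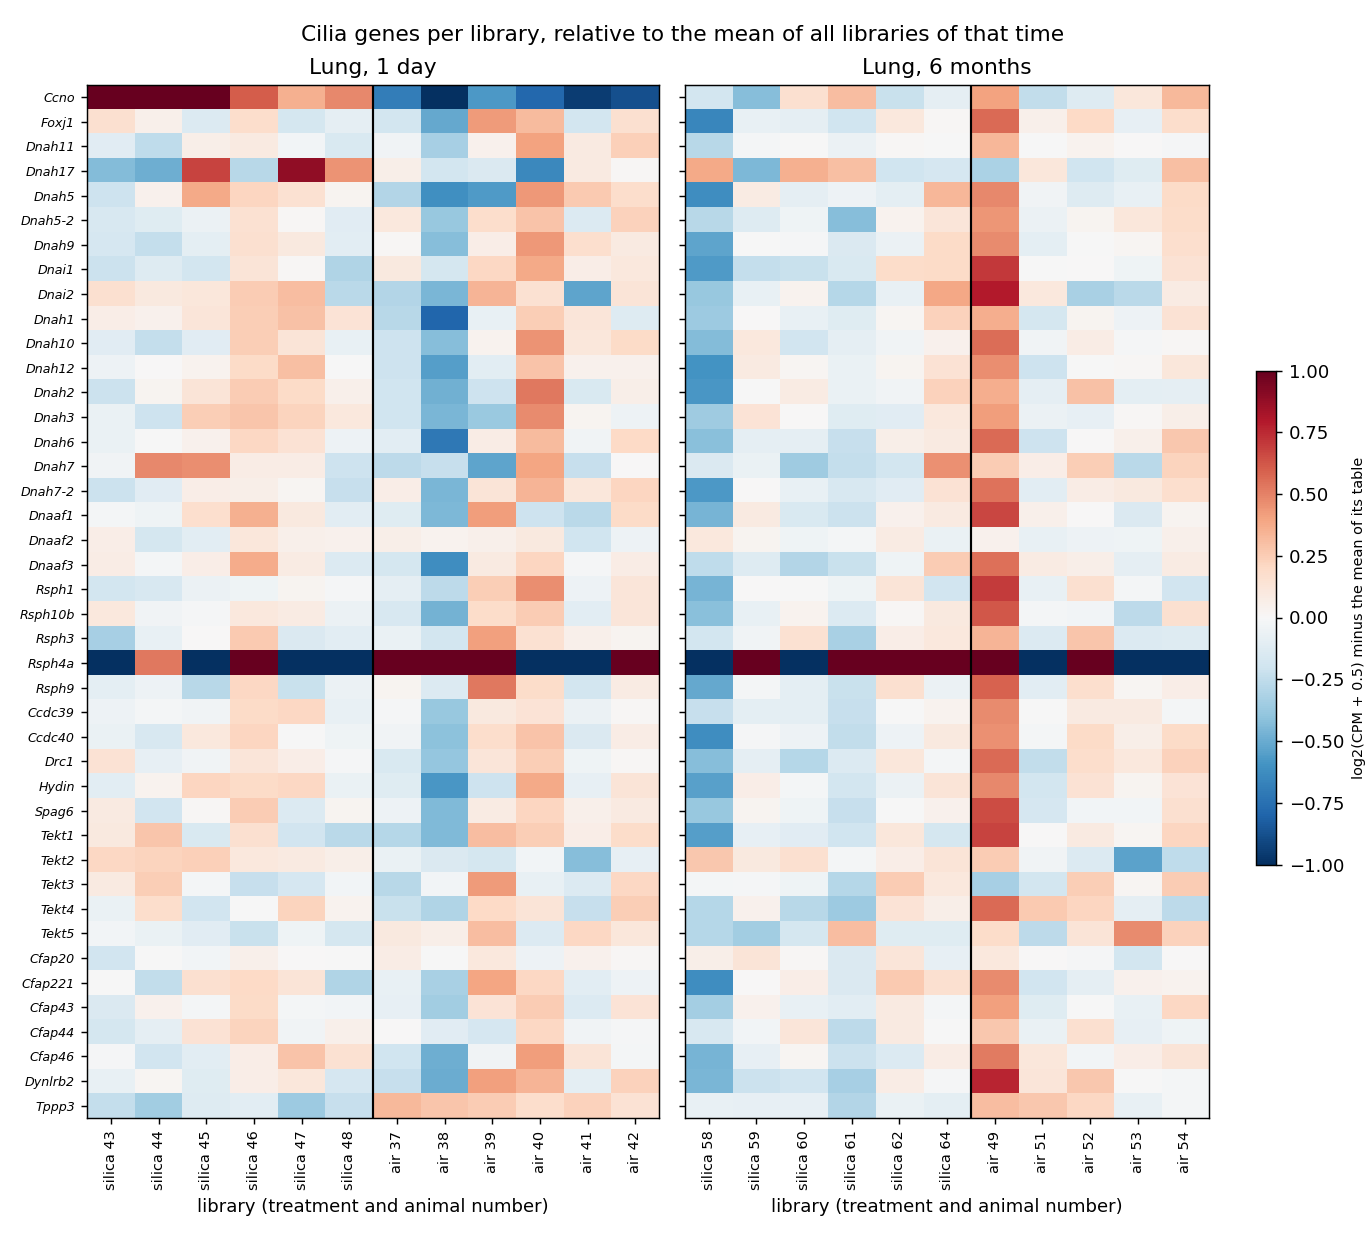
Each row is a member that was tested at 1 time or more and each column a lung library, silica libraries left of air libraries; colour is log2(CPM + 0.5) minus the mean over all libraries of that time. Ccno divides silica from air at 1 day, air 49 is high and silica 58 and air 38 are low in most other rows, and Rsph4a switches between extremes.

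At 1 day after exposure, Ccno was 4.23-fold higher in silica lungs and the doublet protein gene Tekt2 was 1.24-fold higher, while Tppp3 fell to 0.722 of its air level. The other 38 of 41 members tested by edgeR did not pass the test, among them Foxj1 and every member of the dynein arms, radial spokes and central pair. So 3 of 41 members were called (7.32%), beside 14.1% of the 15331 genes tested: 2 rose (8.39% of all genes rose) and 1 fell (5.72% of all genes fell). At an unadjusted p under 0.05, 3 members were higher (14.8% of all genes) and 3 lower (13.1%). The median change of the members was log2 0.0065, against -0.0024 over all genes, with 22 members above 0 and 19 below.

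Ccno encodes cyclin O, an atypical cyclin that multiciliated cells need to multiply their centrioles. Its lowest, median and highest level was 3.11, 4.69 and 6.13 CPM in silica lungs, against 0.843, 1.09 and 1.4 CPM in air lungs. The lowest silica library thus lay above the highest air library, a separation found for 2 of 41 members (Ccno and Tekt2) and in this direction for 5.04% of all genes. Counts behind these levels were 41 to 92 per silica library and 13 to 27 per air library, so the estimate is that of a gene with few reads. The change was log2 2.08 ± 0.21 (edgeR adjusted p = 1.38e-05). Within the silica group, libraries 43, 44 and 45 held 5.57 to 6.13 CPM, and libraries 46, 47 and 48 held 3.11 to 3.81 CPM.

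Mcidas, the regulator that starts the multiciliated programme and the gene next to Ccno, was read at 5 to 17 counts per library in silica and 1 to 8 counts in air lungs. It did not reach the count minimum for edgeR's test. Its lowest, median and highest level was 0.318, 0.683 and 1.03 CPM in silica lungs, against 0.0741, 0.253 and 0.610 CPM in air lungs. The groups overlapped, with the same silica libraries 43, 44 and 45 above all air libraries. The means were 0.675 ± 0.305 CPM in silica and 0.271 ± 0.188 CPM in air lungs (SD, n = 6 each). A two-sided exact permutation test gave p = 0.026, or 0.0909 adjusted over the 7 such tests of members below the minimum. With no filter on counts, edgeR gave log2 1.30 ± 0.42 (adjusted p = 0.0731).

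Deup1, listed as Ccdc67 and not a member by name, encodes a protein of the deuterosome, the structure on which multiciliated cells make their many centrioles. Its lowest, median and highest level was 5.21, 5.91 and 7.39 CPM in silica lungs, against 2.14, 3.44 and 3.93 CPM in air lungs. No silica library of Ccdc67 overlapped the air libraries (log2 0.89 ± 0.14, edgeR adjusted p = 5.36e-04). It belongs to a list of 38 genes of multiciliogenesis and basal bodies, of which 37 were tested at 1 day. Of these, 4 rose and 2 fell (16.2% called, close to the 14.1% of all genes), with a median of log2 0.053. Plk4 and Stil, which start centriole duplication in any dividing cell, rose by log2 0.96 ± 0.091 (edgeR adjusted p = 9.77e-06) and log2 1.35 ± 0.18 (adjusted p = 1.73e-04). Kif24, a kinesin of the mother centriole, rose by log2 0.47 ± 0.13 (adjusted p = 0.0299), a call lost without air 37, 38 or 41 or silica 46 or 47 (adjusted p 0.0558 to 0.0660). Those that fell were Cby1, a basal body protein gene (log2 -0.22 ± 0.054, adjusted p = 0.0155), and Rfx2, an RFX factor gene (log2 -0.25 ± 0.079, adjusted p = 0.0482). The Rfx2 call was lost without air 37, 39, 40, 41 or 42 or silica 43, 44, 45, 47 or 48 (adjusted p 0.0530 to 0.0979), with limma-voom (0.0605) and with no filter (0.0648). Kif24, Cby1 and Rfx2 were named after their values were seen.

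Mki67, a marker of dividing cells chosen after the data were seen, was at 48.1 ± 5.31 CPM in silica and 18.3 ± 3.19 CPM in air lungs (SD, n = 6 each; edgeR adjusted p = 1.96e-06). Its part in the values of Plk4 and Stil was not tested. Other regulators on the list had small estimates or wide errors: Rfx3 at log2 0.11 ± 0.077 (adjusted p = 0.369), Tp73 at 0.027 ± 0.094 (adjusted p = 0.892), Ccna1 at 0.047 ± 0.072 (adjusted p = 0.730) and Gmnc, which acts upstream of Mcidas, at 0.24 ± 0.25 (adjusted p = 0.588). No gene of these 4 passed edgeR's test, and they too were picked after the data were seen.

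**Figure D2:**
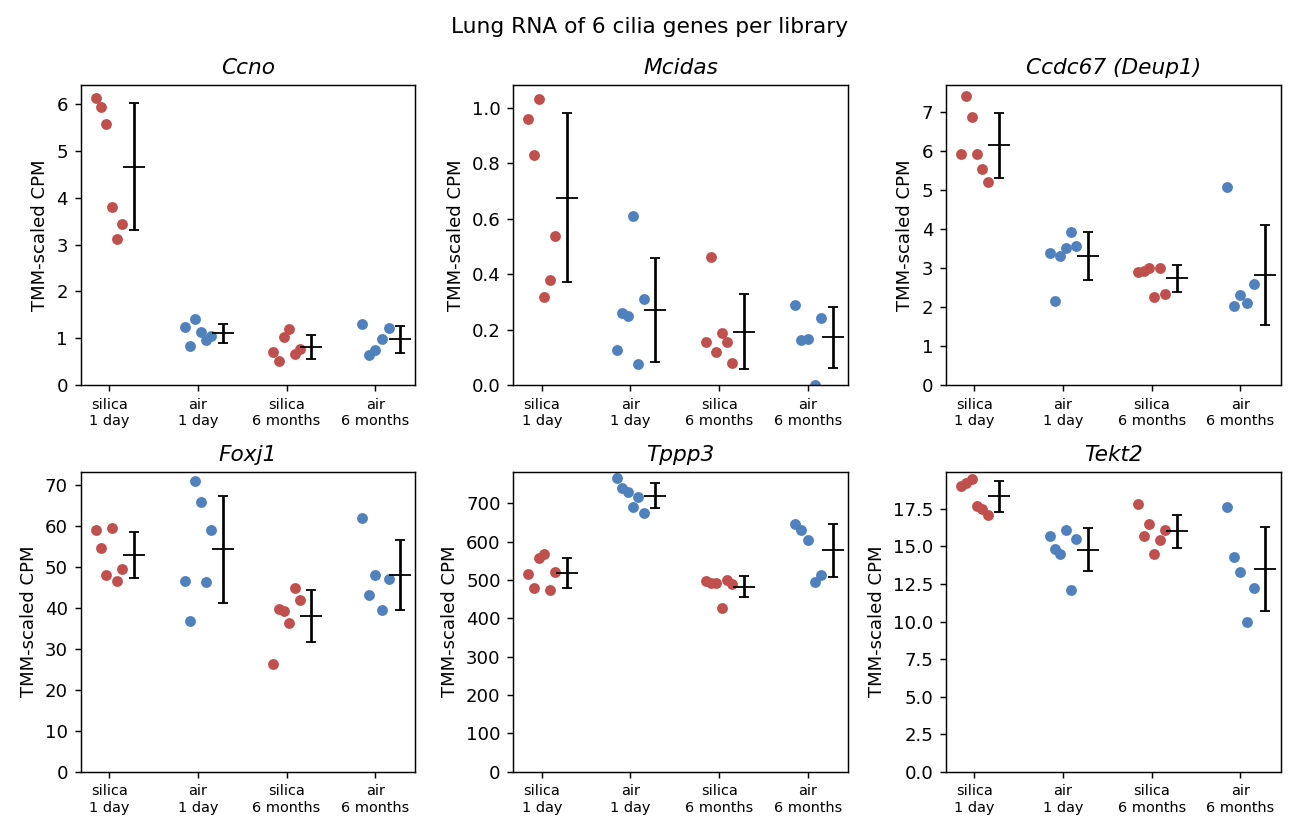
Levels of 6 genes in TMM-scaled CPM (vertical axes start at 0), 1 point per lung library, silica red and air blue, with mean and SD as bars beside the points. Silica points at 1 day lie above all air points of that time for Ccno, Ccdc67 (Deup1) and Tekt2 and below them for Tppp3, while Foxj1 overlaps and Mcidas overlaps in part.

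Foxj1 is the forkhead factor that switches on axoneme genes. At 1 day the silica lungs 43 to 48 held, in that order, 58.9, 54.7, 48.0, 59.6, 46.6 and 49.5 CPM. The air lungs 37 to 42 held 46.5, 36.8, 71.0, 65.8, 46.3 and 59.1 CPM. The silica values lay inside the air range, with medians of 52.1 CPM in silica and 52.8 CPM in air lungs (log2 -0.034 ± 0.13, edgeR adjusted p = 0.907). At 6 months the silica lungs held 26.4 (silica 58), 39.6 (silica 59), 39.2 (silica 60), 36.3 (silica 61), 44.9 (silica 62) and 42.0 CPM (silica 64). The 5 air lungs held 62.0 (air 49), 43.2 (air 51), 47.9 (air 52), 39.5 (air 53) and 47.1 CPM (air 54). Silica 58 was the lowest and air 49 the highest, and the groups overlapped between 39.5 and 44.9 CPM. The change was log2 -0.33 ± 0.13 (edgeR adjusted p = 0.106), and -0.22 without air 49 (adjusted p = 0.254).

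Tppp3 encodes a tubulin-binding protein that is abundant in ciliated cells but is not restricted to them. Its lowest, median and highest level was 473, 518 and 568 CPM in silica lungs at 1 day, against 675, 723 and 765 CPM in air lungs. Every silica library lay below every air library, which held for 1 of 41 members and for 2.75% of all genes. The means were 519 ± 39.3 CPM in silica and 719 ± 32.9 CPM in air lungs (SD, n = 6 each; log2 -0.47 ± 0.049, edgeR adjusted p = 2.18e-05). At 6 months silica lungs held 426, 492 and 499 CPM, lowest, median and highest. The air lungs held 646 (air 49), 630 (air 51), 603 (air 52), 495 (air 53) and 514 CPM (air 54), so that only air 53 fell within the silica range. The change at 6 months was log2 -0.26 ± 0.071 (adjusted p = 0.0255), and the call was lost without air 49 (0.0608), air 51 (0.0608) or air 52 (0.0582). Without air 51 the nexin link gene Drc1 was called in its place (-0.43, adjusted p = 0.0411). Tppp3 accounted for 473 to 568 of the summed member CPM in silica lungs at 1 day. Without it, the remaining members summed to 968 to 1157 CPM in silica and 792 to 1227 CPM in air lungs, ranges that overlapped.

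Tekt2, a tektin of the doublet microtubules, was at 17.1, 18.3 and 19.5 CPM in silica lungs at 1 day (lowest, median, highest), against 12.1, 15.2 and 16.1 CPM in air lungs. The groups did not overlap, and the means were 18.3 ± 1.0 CPM in silica and 14.8 ± 1.4 CPM in air lungs (SD, n = 6 each; log2 0.31 ± 0.070, edgeR adjusted p = 0.00815). At 6 months Tekt2 held 14.5, 15.9 and 17.8 CPM in silica lungs. The air lungs held 17.6 (air 49), 14.3 (air 51), 13.3 (air 52), 10 (air 53) and 12.2 CPM (air 54). Here air 49 alone lay above 14.5 CPM. The change was log2 0.24 ± 0.12 (adjusted p = 0.171), and 0.36 (adjusted p = 0.0309) without air 49. No other tektin was called at 1 day: Tekt1 stood at log2 -0.037 ± 0.14, Tekt3 at -0.052 ± 0.13, Tekt4 at 0.049 ± 0.12 and Tekt5 at -0.25 ± 0.097. Tekt5, which is best known from sperm, had the smallest p of these 4 (adjusted p = 0.111).

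The dynein arm genes showed no called change at 1 day. Among 7 tested rows of the outer arm the median was log2 -0.11, and among 7 of the inner arm it was 0.13. Dnai1, an intermediate chain of the outer arm, had the smallest p there, with 8.41 ± 1.02 CPM in silica and 9.95 ± 1.31 CPM in air lungs (SD, n = 6 each; log2 -0.24 ± 0.10, edgeR adjusted p = 0.147). Dnah1, a heavy chain of the inner arm, had the smallest p of its group, with 32.8 ± 2.30 CPM in silica and 27.1 ± 6.36 CPM in air lungs (log2 0.28 ± 0.13, adjusted p = 0.177). The assembly factor Dnaaf3, which helps to build the arms in the cytoplasm, stood at log2 0.14 ± 0.13 (adjusted p = 0.535), and Dnaaf2 at -1.5e-04 ± 0.066. The main outer arm chains Dnah5-2 (log2 -0.11 ± 0.10), Dnah9 (-0.13 ± 0.11) and Dnah11 (-0.15 ± 0.10) had adjusted p-values of 0.547, 0.508 and 0.385. The remaining tested members ran from log2 -0.16 ± 0.11 (Rsph1) to 0.52 ± 0.37 (Dnah17), apart from Rsph4a at -1.73 ± 1.1 (adjusted p = 0.356), and none was called. Rsph4a was listed at 0 in some libraries of each group, as given with its counts further on.

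The beat-control genes stood near their air levels as well at 1 day. Ccdc39 and Ccdc40, which together set the repeat along the doublets, stood at log2 0.069 ± 0.086 and 0.0065 ± 0.10, and Drc1 of the nexin link at 0.059 ± 0.097. Hydin and Spag6 of the central pair stood at 0.14 ± 0.12 and 0.014 ± 0.10. Rsph9, a radial spoke head protein gene, stood at -0.18 ± 0.12 (edgeR adjusted p = 0.345). Cfap20, an inner junction protein gene that many cell types express, stood at -0.056 ± 0.043, and Dynlrb2, a dynein light chain gene, at -0.084 ± 0.13. Of 86 other axoneme genes tested at 1 day (from 89 rows listed by name), 1 rose and 0 fell by edgeR (1.16% called, beside 14.1% of all genes), with a median of log2 -0.0096. At an unadjusted edgeR p under 0.05, 6 were higher (14.8% of all genes were) and 2 lower (2.33%, beside 13.1% of all genes). DESeq2 called 2 higher and 1 lower, and limma-voom 2 higher and 0 lower. The gene that rose by edgeR was Tubb4b, a beta-tubulin of cilia that other cells also use (log2 0.16 ± 0.031, adjusted p = 0.00393). Spef2 (log2 0.39 ± 0.13, adjusted p = 0.0609) and Fam183b (log2 -0.27 ± 0.094, adjusted p = 0.0717) had the next smallest p-values.

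**Figure D3:**
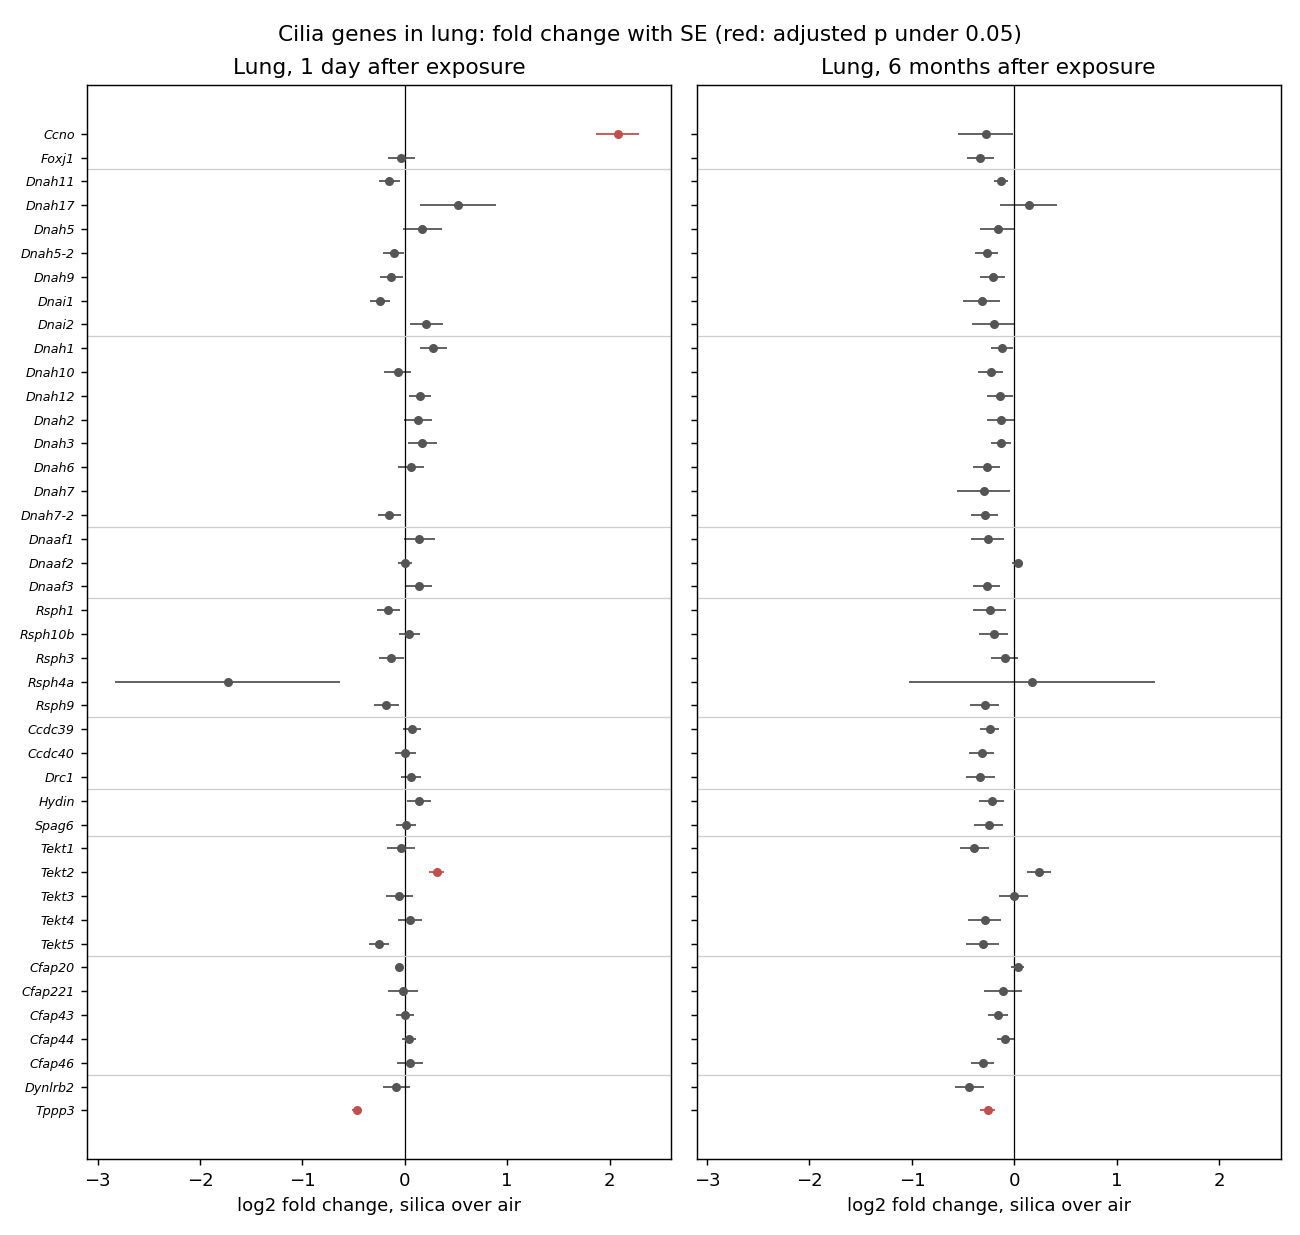
Log2 fold change of silica over air with SE for each tested member, at 1 day (left) and 6 months (right), grouped by role from regulators at the top to Dynlrb2 and Tppp3 at the bottom; red marks an adjusted p under 0.05. Ccno, Tekt2 and Tppp3 stand out at 1 day, and at 6 months most points lie a little left of 0 with Tppp3 alone past the threshold.

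At 6 months most axoneme genes had slightly lower values in silica than in air lungs, but only Tppp3 passed edgeR's test. Of 42 members tested by edgeR, 37 had a log2 change below 0 (88.1%), as did 52.1% of all 15309 genes. The median was log2 -0.24, against -0.008 over all genes. Called were 0 higher and 1 lower (2.38%), beside 16.2% of all genes (9.84% higher and 6.38% lower). At an unadjusted p under 0.05, 0 members were higher and 10 were lower (23.8%), beside 16.0% of all genes that were higher and 14.6% that were lower. DESeq2 called 0 higher and 5 lower (Tppp3, Dynlrb2, Tekt1, Ccdc40 and Cfap46), limma-voom 0 higher and 1 lower. The shares of all genes given here are edgeR's, and none was taken for DESeq2 or limma-voom. Their counts therefore have no background beside them. No member separated the groups completely in either direction, as 6.96% (silica above) and 3.5% (silica below) of all genes did. Air 49 and silica 58 bore on this: without air 49 the median was -0.098 with 35 of 42 members below 0, and without silica 58 it was -0.173 with 36 of 42 below 0. In bulk lung, fewer ciliated cells and less RNA per ciliated cell cannot be told apart. Markers of other cells moved in the same lungs: macrophage markers (13 genes, none at 0) summed to 2483 to 3616 CPM in silica and 1391 to 1885 CPM in air lungs, and 11 of 12 tested rose (median log2 0.83). Alveolar type 2 markers (10 genes, none at 0) summed to 31391 to 38744 CPM in silica and 22038 to 27737 CPM in air lungs, and 8 of 10 rose (median log2 0.43). Silica 58, the lowest in most axoneme genes, was the highest of its group in both sums. Alveolar type 1 markers (10 genes, none at 0) went the other way. They summed to 8900 to 10075 CPM in silica, with silica 58 lowest, and 10184 to 11273 CPM in air lungs. All 10 lay below 0 (median log2 -0.14), and edgeR called 0 higher and 3 lower (30%, beside 16.2% of all genes). The part of these marker lists in the lower axoneme values was not tested.

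Dynlrb2 had the largest decrease in point estimate among the tested members at 6 months, just short of the threshold. Silica lungs held 14.1, 16.9 and 20.6 CPM (lowest, median, highest). The air lungs held 33.4 (air 49), 21.3 (air 51), 23.7 (air 52), 19.5 (air 53) and 19.3 CPM (air 54). Only silica 62 and 64 reached into the air range (log2 -0.44 ± 0.14, edgeR adjusted p = 0.0507). Without air 49 the Dynlrb2 estimate was -0.28 (adjusted p = 0.0985). Over all its alternatives it ran from -0.51 to -0.28, with adjusted p from 0.0152 (DESeq2) to 0.0985. It passed without air 53, air 54, silica 62 or silica 64 (0.0383 to 0.0485). It also passed with RLE factors (0.0499), upper-quartile factors (0.0482) and a minimum count of 50 (0.0461). Rows of a name summed (0.0477) and all 4 lung groups in 1 fit (0.0425) gave a call too. Tekt1 stood at 9.78 ± 1.5 CPM in silica (SD, n = 6) and 12.9 ± 2.83 CPM in air lungs (SD, n = 5; log2 -0.39 ± 0.14, adjusted p = 0.0759). Air 49 held 17.8 CPM of Tekt1 and the other 4 air lungs 11 to 12.8 CPM, and without air 49 the estimate was -0.25 (adjusted p = 0.174). DESeq2 called Tekt1 lower over all libraries (adjusted p = 0.0389).

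The ruler, link and central pair genes had similar estimates at 6 months. Ccdc40 was at 18.5 ± 3.11 CPM in silica (SD, n = 6) and 23.1 ± 3.05 CPM in air lungs (SD, n = 5; log2 -0.32 ± 0.12, edgeR adjusted p = 0.0887). Ccdc39 was at log2 -0.24 ± 0.093 (adjusted p = 0.0975), Drc1 at -0.33 ± 0.14 (adjusted p = 0.121), Hydin at -0.22 ± 0.12 (adjusted p = 0.245) and Spag6 at -0.25 ± 0.14 (adjusted p = 0.256). Each lay below 0 and edgeR called none, while DESeq2 called Ccdc40 lower (adjusted p = 0.0483). Among dynein arm rows, all 8 tested of the inner arm lay below 0 (median log2 -0.18) and 6 of 7 of the outer arm (median -0.20). Dnah5-2 (-0.27 ± 0.11, adjusted p = 0.113) and Dnah7-2 (-0.29 ± 0.13, adjusted p = 0.146) had the smallest p of the outer and the inner arm. Dnaaf3 stood at -0.27 ± 0.13 (adjusted p = 0.187), Rsph9 at -0.29 ± 0.14 (adjusted p = 0.182) and Cfap46, a central pair protein gene, at -0.31 ± 0.11 (adjusted p = 0.0845). Cfap46 was called lower by DESeq2 (adjusted p = 0.0495). These estimates shrank on leaving out air 49: Ccdc40 to -0.24, Ccdc39 to -0.15, Drc1 to -0.22, Hydin to -0.12 and Spag6 to -0.085. Without that library Dnah5-2 stood at -0.19, Dnah7-2 at -0.18, Dnaaf3 at -0.14, Rsph9 at -0.16 and Cfap46 at -0.20. The other members below 0 ran from -0.32 ± 0.18 (Dnai1) to -0.0062 ± 0.14 (Tekt3), and none of these was called. The members above 0 were Tekt2, Rsph4a, Dnah17, Dnaaf2 and Cfap20, and the last 3 were read in blood as well, as given at the end. Cfap44 (log2 -0.087 ± 0.082), Dnah1 (-0.12 ± 0.11) and Tppp3 (-0.26 ± 0.071) were also read in blood at both times and lay below 0.

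The other axoneme genes had the same median as the members at 6 months. Of 85 tested, 79 lay below 0 and the median was log2 -0.24, with 2 risen and 4 fallen (7.06% called, beside 16.2% of all genes). Without air 49 the median was -0.13, with 1 risen and 1 fallen. Spef1, a microtubule-binding protein gene of the central pair, fell to 25.1 ± 1.74 CPM in silica (SD, n = 6), against 30.3 ± 2.29 CPM in air lungs (SD, n = 5; log2 -0.27 ± 0.061, edgeR adjusted p = 0.00967). The highest silica level of Spef1 was 26.8 CPM and the lowest air level 26.9 CPM, and its call held in each alternative run. Enkur fell (log2 -0.30 ± 0.079, adjusted p = 0.0219; 0.0545 without air 49). A further 3 calls were lost on leaving out single libraries. Ccdc146 (log2 0.26 ± 0.072, adjusted p = 0.0297) was lost without air 49, 51 or 53 or silica 60, 61, 62 or 64 (0.0503 to 0.0731). Erich3 (0.35 ± 0.10, adjusted p = 0.0314) was lost without air 51, 52 or 53 or silica 58, 59, 60 or 64 (0.0504 to 0.0816). Lrrc6, an assembly factor gene (-0.51 ± 0.15, adjusted p = 0.0401), was lost without air 49, 51, 53 or 54 or silica 58, 60, 61 or 62 (0.0501 to 0.0951). The Lrrc6 call was also lost with no filter (edgeR adjusted p = 0.072). DESeq2 called 2 genes of this list higher and 10 lower, and limma-voom 2 higher and 3 lower. No share of all genes called was taken for DESeq2 or limma-voom. Erich3 and Lrrc6 were named after their values were seen.

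Among the 37 tested genes of multiciliogenesis and basal bodies at 6 months, 3 rose and 0 fell by edgeR (8.11% called, beside 16.2% of all genes), with a median of log2 -0.042. At an unadjusted edgeR p under 0.05, 3 of them were higher (16.0% of all genes were) and 6 lower (16.2%, beside 14.6% of all genes). DESeq2 called 3 higher and 1 lower, and limma-voom 3 higher and 0 lower. Those that rose by edgeR were Plk4 (log2 0.52 ± 0.099, adjusted p = 0.00367), Stil (0.65 ± 0.16, adjusted p = 0.0164) and Sass6 (0.37 ± 0.096, adjusted p = 0.0207; 0.0536 without air 52), 3 genes of centriole duplication. Mki67 was at 35.3 ± 5.11 CPM in silica (SD, n = 6) and 20.2 ± 2.78 CPM in air lungs (SD, n = 5; adjusted p = 4.87e-04), and its part in these values was not tested. Ccdc67 was at 2.73 ± 0.343 CPM in silica and 2.82 ± 1.27 CPM in air lungs (log2 -0.048 ± 0.23, adjusted p = 0.914), with air 49 at 5.06 CPM and the other air lungs at 2.03 to 2.58 CPM. Without air 49 its estimate turned to 0.27 (adjusted p = 0.249).

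Intraflagellar transport carries parts into growing cilia, both motile and primary, so its genes are not specific to ciliated airway cells. Of 30 tested, 2 rose and 3 fell at 1 day (16.7% called, beside 14.1% of all genes), and 1 rose and 3 fell at 6 months (13.3%, beside 16.2% of all genes). These called shares are close to those of all genes. At 6 months, however, 28 of the 30 lay below 0 (93.3%, beside 52.1% of all genes), with a median of log2 -0.10. At an unadjusted edgeR p under 0.05, 1 was then higher (16.0% of all genes were) and 8 were lower (26.7%, beside 14.6% of all genes). At 1 day 21 of the 30 lay below 0 (70%, beside 50.8% of all genes). Ttc21b, a retrograde transport subunit, rose at both times, by log2 0.34 ± 0.050 at 1 day (edgeR adjusted p = 4.07e-04) and 0.20 ± 0.052 at 6 months (adjusted p = 0.0202; 0.0535 without air 53). Tulp3, an adaptor for receptors of primary cilia, fell at both times, with log2 -0.14 ± 0.038 at 1 day (adjusted p = 0.0225; 0.0521 without air 42) and -0.23 ± 0.040 at 6 months (adjusted p = 0.00261). Hspb11 (-0.38 ± 0.080, adjusted p = 0.00549) and Ift88 (-0.22 ± 0.050, adjusted p = 0.00731) fell at 1 day. The remaining call at 1 day, Ift80 (0.17 ± 0.051, adjusted p = 0.0434), was lost without air 37, 38, 39, 40 or 41 or silica 44, 45, 46, 47 or 48 (0.0549 to 0.0934), with DESeq2 (0.0568), with limma-voom (0.0541) and with no filter (0.0699). DESeq2 and limma-voom each called 1 gene of the list higher and 3 lower at 1 day. At 6 months Kifap3, a subunit of the transport kinesin (-0.13 ± 0.038, adjusted p = 0.0303), was lost without air 49, 53 or 54 or silica 58 or 60 (0.0514 to 0.0652). The Kifap3 call was also lost with no filter (edgeR adjusted p = 0.064). Wdr34, a chain of the transport dynein (-0.24 ± 0.070, adjusted p = 0.0357), was lost without air 49, 51 or 52 or silica 59, 61, 62 or 64 (0.0510 to 0.0773). The Wdr34 call was also lost with no filter (edgeR adjusted p = 0.0643). Without air 49, 1 of the transport genes rose and 1 fell at 6 months. Ift80 and Wdr34 were named after their values were seen.

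The silica effect on Ccno differed between the times. At 6 months Ccno was at 0.513, 0.740 and 1.19 CPM in silica lungs (lowest, median, highest). The air lungs held 1.30 (air 49), 0.649 (air 51), 0.744 (air 52), 0.975 (air 53) and 1.21 CPM (air 54). The groups overlapped (log2 -0.28 ± 0.27, edgeR adjusted p = 0.533), on 8 to 19 counts per library. The difference of the effects, 6 months minus 1 day, was log2 -2.35 ± 0.33 (adjusted p = 7.35e-04). Of 42 members tested, edgeR called 0 with a higher effect at 6 months (1.12% of all 15786 genes) and 1, Ccno, with a lower one (0.253% of all genes). DESeq2 and limma-voom also called 0 higher and 1 lower. At an unadjusted p under 0.05, 1 member had a higher effect (7.93% of all genes) and 5 a lower one (5.61%). Mcidas showed 0.193 ± 0.137 CPM in silica (SD, n = 6) and 0.172 ± 0.110 CPM in air lungs (SD, n = 5) at 6 months (two-sided exact permutation p = 0.818, adjusted 0.955 over the 7 tests). For Ccdc67 the difference of effects was log2 -0.94 ± 0.27 (adjusted p = 0.0854). Tppp3 (0.22 ± 0.089, adjusted p = 0.279) and Tekt2 (-0.059 ± 0.13, adjusted p = 0.889) were not shown to differ between the times.

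Side by side, 20 of the 41 members tested at both times lay above 0 at 1 day and below 0 at 6 months, and 3 the other way round. Another 16 lay below 0 at both times and 2 above 0 at both, Tekt2 and Dnah17. The value at 6 months was the lower for 34 of 41. The members' median at 1 day was log2 0.0065, so many signs at that time rest on estimates near 0. The members were also read from the same libraries, so these counts are not separate observations. Such sign counts were not made for all genes. In the test of the difference 35 of 42 members lay below 0 (83.3%, beside 51.5% of all genes), and 30 of 42 without air 49. The members' median was log2 -0.25, against -0.005 over all genes, and -0.127 without air 49.

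Rsph4a, a radial spoke head protein gene, was named after its values were seen, because its estimates switched between 0 and high values. At 1 day it was at 0 in 4 of 6 silica libraries, with 40 and 192 counts in the other 2, and at 0 in 2 of 6 air libraries, with 185 to 245 counts in the other 4. At 6 months it was at 0 in 2 of 6 silica libraries and 3 of 5 air libraries, and at 238 to 391 counts elsewhere. Such zeros beside high values in the same group can be a failed estimate, so the estimates printed for Rsph4a are not read as changes. Rsph4a was nevertheless kept in the sign counts, medians and summed CPM of the members. In the sums at 6 months it added 28.2 CPM to air 49 and 0 to air 51, 53 and 54. The row Dnah7 had 4 to 19 counts per library at 1 day and was not tested then (two-sided exact permutation p = 0.141, adjusted 0.258). Members with hardly any reads were Rsph6a, with 0 or 1 count in every lung library, and Dnah8, with 1 to 3 counts per silica and 3 to 9 per air library at 1 day; both are best known from sperm. Of 10 markers of testis germ cells, 5 were at 0 in every lung library at 1 day and 6 at 6 months. For Dnah8 at 1 day, an exact permutation test (two-sided, n = 6 each) gave p = 0.026, adjusted 0.0909, on 0.167 ± 0.0698 CPM in silica and 0.287 ± 0.0731 CPM in air lungs. Of the other exact permutation tests, Dnah8 at 6 months gave p = 0.147 (adjusted 0.258), and Rsph6a gave p = 0.727 at 1 day and 1.0 at 6 months.

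Markers of airway secretory cells and of muscle also had their highest air values in air 49. At 6 months the 20 markers of airway secretory cells, of which Ltf and Tff2 were at 0, summed to 8060 to 9706 CPM in silica and 8101 to 10551 CPM in air lungs, with silica 58 lowest and air 49 highest. The 10 markers of airway smooth muscle summed to 496 to 656 CPM in silica and 544 to 802 CPM in air lungs, and silica 58 and air 49 again held the extremes of their groups. The 15 markers of heart and skeletal muscle, of which Nppa was at 0, summed to 39.9 to 262 CPM in silica and 20.3 to 544 CPM in air lungs, with air 49 highest. The air library with the highest sum of axoneme genes also had the highest sums of secretory and muscle markers of its group, which is 1 library. Air 51 held 324 CPM of heart and skeletal muscle markers, against 20.3 to 77.6 CPM in air 52, 53 and 54. It was the lowest air lung in the members without Tppp3 (837 CPM). Markers of all epithelia (12 genes, none at 0) summed to 1300 to 1428 CPM in silica and 1229 to 1344 CPM in air lungs, with air 49 at neither end. The 14 markers of neuroendocrine and tuft cells, of which Foxi1 was at 0, summed to 42.5 to 51.1 CPM in silica and 36.9 to 46.9 CPM in air lungs, with air 49 at 40.7 CPM and air 51 highest. The part of these differences in the values above was not tested. Of 16 secretory markers tested at 6 months, 4 rose and 2 fell (37.5% called, beside 16.2% of all genes). The counts without air 49 were also 4 and 2. Their median was log2 -0.26, or 0.06 without air 49. Of 10 smooth muscle markers and 12 heart and skeletal muscle markers tested, edgeR called 0 (beside 16.2% of all genes), with medians of log2 -0.25 and -0.88. Below 0 lay 9 of the 10 and 10 of the 12 (52.1% of all genes). At an unadjusted edgeR p under 0.05, 1 smooth muscle marker was higher (16.0% of all genes) and 6 were lower (60%, beside 14.6% of all genes). By the same measure 0 heart and skeletal muscle markers were higher or lower. DESeq2 called 1 smooth muscle marker higher and 2 lower, limma-voom 1 higher, and neither called a heart or skeletal muscle marker.

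**Figure D4:**
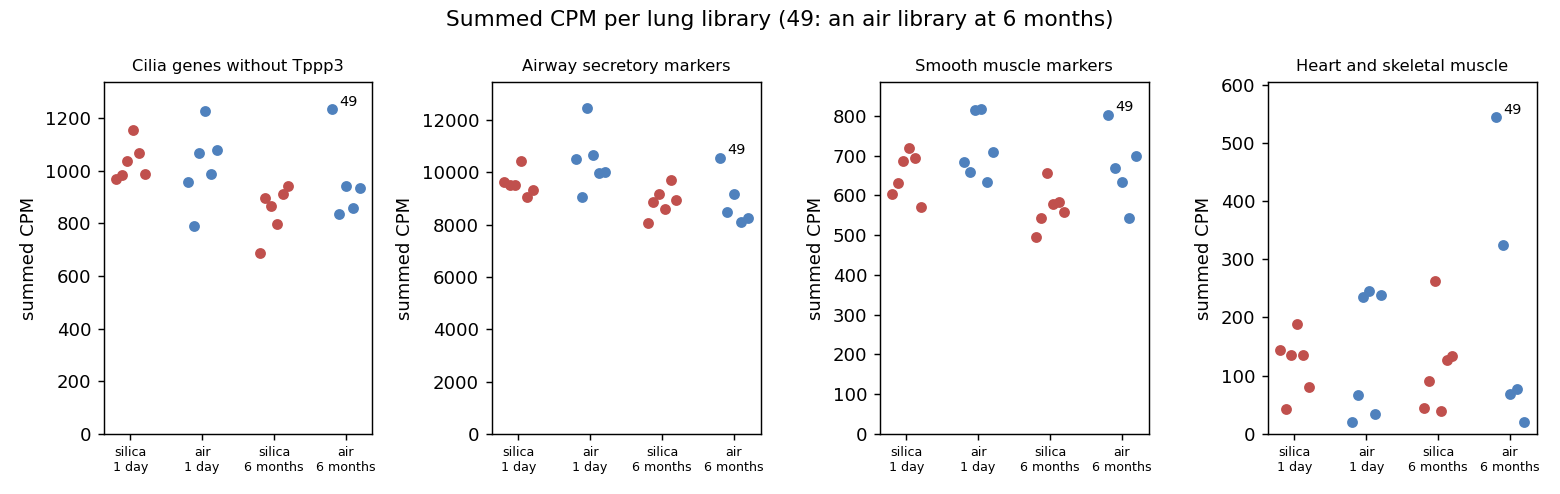
Summed TMM-scaled CPM per lung library of the members without Tppp3 and of 3 marker lists (vertical axes start at 0), silica red and air blue, 1 point per library. Air library 49 at 6 months is the highest of its group in all 4 panels, at 1234 CPM for the cilia genes.

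At 1 day the same lists gave 9046 to 10434 CPM in silica and 9077 to 12469 CPM in air lungs for secretory markers, with Tff2 at 0. Smooth muscle markers summed to 570 to 718 CPM in silica and 633 to 818 CPM in air lungs. Heart and skeletal muscle markers, with Nppa at 0, summed to 42.8 to 188 CPM in silica and 21.1 to 246 CPM in air lungs. Air 38, the air library lowest in most axoneme genes, was also the lowest in secretory markers. It was not the lowest in smooth muscle markers (659 CPM, air 41 633 CPM) or in heart and skeletal muscle markers (66.2 CPM, air 37 21.1 CPM). Among air lungs it was the highest in markers of all epithelia (1456 CPM) and of neuroendocrine and tuft cells (61.9 CPM). Its removal moved the members' median at 1 day to log2 -0.056, with 26 of 42 members below 0, and Dnah7-2 was then called (-0.25, edgeR adjusted p = 0.0436). Without air 40, the library highest for 25 of 41 members, the median was 0.061.

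In whole blood, which holds no ciliated airway cells, the members were far lower. Over the 12 blood libraries of a time they summed to 35.3 to 45.1 CPM at 1 day and 25.0 to 34.6 CPM at 6 months, against 1461 to 1917 and 1183 to 1880 CPM in lung. At a mean of at least 1 CPM, 7 of 45 members were read in blood at 1 day and 6 at 6 months, against 40 of 45 in lung at each time. Those in blood at both times were Cfap20, Cfap44, Dnaaf2, Dnah1, Dnah17 and Tppp3, and Ccdc40 was at the limit at 1 day. Among those 7 members Dnah17 alone was higher in blood than in lung at 1 day, with a mean of 2.69 CPM in blood and 0.949 CPM in lung. Blood and lung were normalised separately, so these levels are only set side by side.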

How the data were processed

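Per the labels, lung RNA was extracted with a kit for fibrous tissue and made into stranded poly(A) libraries. The authors deposited estimated counts per gene in tables whose names credit Salmon. The submitters' processing notes list Salmon 1.10.1, STAR 2.6.1d, the build Rnor_6.0, bcl2fastq 2.19, Trim Galore 0.6.7 and cutadapt 3.4, with no roles given. How reads shared between near-identical rows were divided is not given in the sources used here. The 4 tables for lung and blood were read, covering 47 libraries, of which 23 are lung. The blood tables served only for levels.

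Here the estimated counts were rounded to whole numbers. Genes were kept by filterByExpr with a minimum count of 10, scaled by TMM and tested at each time by edgeR 4.0.16's quasi-likelihood test (R 4.3.3), silica against air, with Benjamini-Hochberg adjustment over all genes tested and a threshold of 0.05. A fit over the 4 lung groups tested whether the silica effect differed between times. Each SE was the log2 fold change divided by the root of its F statistic. Members below the count minimum were compared by exact permutation tests in scipy 1.17.1 (Python 3.11.15). Precision follows the counts given, and replicates of a group differed by more than sampling noise (chi-square per degree of freedom 4.37 to 13.5). The fits were tested on simulated data with known changes. Alternatives were DESeq2 1.42.0, limma-voom (limma 3.58.1), RLE and upper-quartile factors, TMM without the members, a minimum count of 50, no filter, robust dispersion, rows of a name summed, all 4 lung groups in 1 fit, and each library left out. Shares of all genes called were taken for the main edgeR fits only, so calls by an alternative stand without one.

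The members and the lists of other genes were chosen with earlier results of these data known. Genes named were the 10 single genes of the rule, the members called, the smallest p of each role at each time, and the 3 smallest p at each time in 3 further lists of cilia genes. Other members are given to account for them all. Promoters and gene neighbours came from RefSeq tables of GRCr8 and were matched by symbol, Ccdc67 through a listed synonym. No coordinate was carried over between builds. A single call among the other axoneme genes at 6 months is counted but not reported here by name.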

Additional observations from a re-analysis of the deposited data

Results flagged for a closer look

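The silica effect on Ccno differed between the times: the effect at 6 months minus that at 1 day was log2 -2.35 (edgeR adjusted p = 7.35e-04). Within groups, 84 sets of libraries were examined for a library far from the others, and 8 were found. Chance gives about 1 in 20 for separate sets. These sets hold the same libraries read for several genes, so they are not separate, and the 8 are not set against that rate. Of the 8, 5 concerned air library 49 at 6 months, which held 21.4 CPM of Ccdc39 (the other 4 air lungs 15.1 to 16.3), 17.8 CPM of Dnaaf3 (11.2 to 12.7), 12.4 CPM of Dnai1 (7.20 to 8.23), 21.4 CPM of Cfap46 (14.5 to 16.2) and 17.8 CPM of Tekt1 (11 to 12.8). In silica lungs at 6 months, library 61 held 426 CPM of Tppp3 (the others 488 to 499) and library 59 held 0.461 CPM of Mcidas (the others 0.0778 to 0.187). In silica lungs at 1 day, library 43 held 41.9 CPM of Cfap20 (the others 47.0 to 49.5).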

How the results depend on the processing

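At 1 day the count of members that rose was 1 with a minimum count of 50, which removes Ccno from the test, and the count that fell was 1 to 2 over the fits without each library. At 6 months the count that rose was 0 to 1 without each library, and the count that fell was 0 to 2. That count was 5 with DESeq2 and 2 with RLE factors, upper-quartile factors, a minimum count of 50, rows of a name summed, or all 4 lung groups in 1 fit; the cause was not tested. With a minimum count of 50 the count of members whose effect was lower at 6 months than at 1 day was 0, since Ccno is then not tested. Ccno's change at 1 day was log2 1.99 to 2.17 over its alternatives. For named genes, 2464 results kept their direction and side of the threshold, 32 passed it newly, 20 no longer passed and 27 changed sign. The 27 were estimates near 0 that passed in no fit. Ccdc40 at 1 day was -0.003 with all 4 lung groups in 1 fit, and Ccdc67 at 6 months was 0.028 with limma-voom. The others came from leaving out a library. At 1 day Foxj1 ranged from -0.12 to 0.052, Ccdc40 from -0.067 to 0.065, Drc1 from -0.0077 to 0.12, Spag6 from -0.064 to 0.058, Cfap46 from -0.031 to 0.15 and Tekt1 from -0.12 to 0.021. At 6 months Cfap20 ranged from -0.012 to 0.061, Ccdc67 from -0.15 to 0.27 and Hspb11 from -0.073 to 0.024. The difference between times ranged from -0.15 to 0.097 for Dnai1, -0.20 to 0.034 for Rsph9, -0.15 to 0.054 for Tekt2 and -0.15 to 0.016 for Fam183b. No paired analysis was possible because silica and air rats carry different animal numbers. Depth limits Mcidas, Dnah7, Dnah8 and Rsph6a, which were too low for edgeR at 1 day.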
